A study of Mus musculus with 9 samples.

Results

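Imprinted genes are transcribed mainly from the copy inherited from one parent, and 10 of them were looked up by symbol in a table of gene counts from mouse embryonic stem cells: H19, Igf2, Igf2r, Peg3, Peg10, Meg3, Snrpn, Mest, Impact and Nnat. The table listed 8 of the 10 among its 16636 genes. H19 and Meg3, both noncoding RNAs, were not analysed here. All 8 passed the filter on low counts, which left 14246 genes for testing. E14 cells, an established stem cell line, were grown in 2i/LIF medium, which holds them in the naive state with inhibitors of MEK and GSK3 and the cytokine LIF. The 3 groups were untreated cells, cells given siRNA against luciferase (siLuc), a sequence these cells lack, and cells given siRNA against Stag3 (siStag3), which encodes a cohesin subunit best known from meiosis. The genotype label was wild type for the untreated cells and Stag3 knockdown for the siStag3 cells. Each group had 3 libraries, described by the labels as biological replicates of 1 cell line. The siRNA groups were collected after 48 hours and had received 50 pmol at each of their transfections. The untreated cells received no transfection according to the labels, and no seeding or collection time is given here for them. The comparison of siLuc with untreated is thus of transfected with untransfected cells, and a difference in seeding or time cannot be told apart from it. In siStag3 against untreated the siRNA target differs as well, and siStag3 against siLuc compares the siRNA targets.

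Imprinted expression depends on DNA methylation laid down in sperm or egg at control regions, which is kept on a single parental copy after fertilization by factors such as ZFP57, TRIM28, UHRF1 and DNMT1. Naive culture in 2i lowers DNA methylation across much of the genome, and imprints can be lost in cultured stem cells. Several imprinted genes regulate growth, placental development or metabolism, with paternally expressed genes often promoting growth. The counts add the transcripts of both parental copies. They therefore give the total level of each gene and hold no reading of which copy was transcribed.

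Of the 8 genes, 7 are known as paternally expressed in mouse and Igf2r as maternally expressed. The RefSeq promoter table for build GRCm38.p6 had an entry for 6 of the 8. The windows below, 250 bases before to 50 after a start site, are those of Mest and Igf2r, whose CPM lay above and below those of untreated cells in the siStag3 libraries, and of Peg3 with its neighbour Usp29. Peg3 and Usp29 are transcribed away from each other from starts 164 bases apart, and their windows share 263 bases, read from opposite strands. Capitals mark each CG pair, the site of DNA methylation in mammals.
Mest, chr6:30737800-30738099, plus strand: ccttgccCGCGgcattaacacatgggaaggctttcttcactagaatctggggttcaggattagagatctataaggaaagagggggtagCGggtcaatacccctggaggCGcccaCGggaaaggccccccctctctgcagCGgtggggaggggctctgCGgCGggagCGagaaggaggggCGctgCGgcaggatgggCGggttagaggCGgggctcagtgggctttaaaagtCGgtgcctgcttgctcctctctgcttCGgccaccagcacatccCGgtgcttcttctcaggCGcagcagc
Igf2r, chr17:12769657-12769956, minus strand: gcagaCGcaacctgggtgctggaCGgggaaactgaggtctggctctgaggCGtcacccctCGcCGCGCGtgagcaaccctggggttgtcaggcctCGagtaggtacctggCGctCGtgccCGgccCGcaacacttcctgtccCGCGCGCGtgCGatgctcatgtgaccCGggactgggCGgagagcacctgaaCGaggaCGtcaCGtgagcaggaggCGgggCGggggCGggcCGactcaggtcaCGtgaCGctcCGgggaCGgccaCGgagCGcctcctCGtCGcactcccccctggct
Peg3, chr7:6730370-6730669, minus strand: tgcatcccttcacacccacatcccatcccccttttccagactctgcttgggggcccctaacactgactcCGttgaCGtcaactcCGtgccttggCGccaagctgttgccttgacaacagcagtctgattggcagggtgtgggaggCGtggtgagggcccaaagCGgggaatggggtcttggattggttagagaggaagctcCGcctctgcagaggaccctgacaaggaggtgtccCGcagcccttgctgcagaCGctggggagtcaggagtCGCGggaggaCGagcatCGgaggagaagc
Usp29, chr7:6730333-6730632, plus strand: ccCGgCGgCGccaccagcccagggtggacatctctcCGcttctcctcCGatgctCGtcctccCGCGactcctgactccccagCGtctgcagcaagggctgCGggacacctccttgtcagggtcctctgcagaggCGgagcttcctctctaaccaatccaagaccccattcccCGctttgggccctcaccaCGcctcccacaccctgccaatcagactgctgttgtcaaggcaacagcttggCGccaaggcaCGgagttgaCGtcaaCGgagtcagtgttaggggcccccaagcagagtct
CG, which reads the same on both strands, occurred 34 times in the Igf2r window, 17 times in the Mest window, 13 times in the Peg3 window and 17 times in the Usp29 window. Mest has 3 entries, and the window shown is the one with the lower start of 2 that each hold 17. Of 32851 windows of 300 bases, 7.73% held at least as many CG pairs as Igf2r, 31.4% as many as Mest and 37.9% as many as Peg3, and 94.6% held at least 1. The Igf2r window is thus among the CG-richest of the table, while the Mest and Peg3 windows lie nearer its middle. No methylation was measured here.

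The libraries held 29332436 to 44527534 counts. At these depths 3 counts, used as the limit of detection for counting error only, correspond to 0.0674 to 0.102 CPM (the count relative to its library total, scaled by the trimmed mean of M-values). The column names place each library in a Set and an experiment, with 2 libraries of each group in Set 1 and 1 in Set 3. In Set 3 the untreated and siStag3 libraries are from experiment 5 and the siLuc library from experiment 1, so a difference between siLuc and the other groups there cannot be told apart from one between experiments. What the sets and experiments stand for is not given in the sources used here. Adjusted p-values below are from edgeR's quasi-likelihood test with a term for Set, adjusted over 14246 genes by the Benjamini-Hochberg method, and a gene was called at an adjusted p under 0.05. Naive pluripotency markers summed to 5087 to 5548 CPM over all libraries, with 12 of 12 listed. The marker sums of trophoblast, primitive endoderm, neural and mesoderm lists stayed at or below 168.2 CPM. The fibroblast list reached 558 CPM almost wholly through Vim, at 457 to 556 CPM, while Col1a2, Col3a1 and Postn were at or under 0.196 CPM. In the siStag3 libraries Stag3 stood at 13.5, 15.2 and 15.6 CPM, against 22.5, 23.4 and 26.7 CPM in siLuc and 24.1, 24.3 and 28.6 CPM in untreated cells. All 3 knockdown libraries lay below the other 6, and siStag3 against siLuc gave a log2 fold change of -0.71 (SE 0.0722, adjusted p = 0.00205, and 0.605 with no Set term).

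The 8 genes spanned a wide range of levels. Per kb of the longest transcript, the mean over 9 libraries was 68.0 CPM per kb for Impact (SD 9.92), 25.5 for Snrpn (SD 1.29), 23.9 for Mest (SD 4.57), 13.7 for Peg3 (SD 1.98), 13.4 for Igf2r (SD 1.77) and 3.60 for Peg10 (SD 0.550). Nnat followed at 0.395 CPM per kb (SD 0.0796) and Igf2 at 0.0664 (SD 0.0422). Impact was above the other 7 in every library, at 52.4 to 80.9 CPM per kb. Neighbours in the order that overlapped over the libraries were Snrpn with Mest, Mest with Peg3, and Peg3 with Igf2r. Peg10, Nnat and Igf2 were each apart from the gene above. Among the 16604 genes with a length, Impact ranked at percentile 94.3, Snrpn at 84.1, Mest at 82.9, Peg3 at 73.3, Igf2r at 72.8, Peg10 at 50.3, Nnat at 27.9 and Igf2 at 12.4. Lengths are from GENCODE M21, while the submitters' processing notes name build GRCm39. Summed CPM of the 8 genes was 542 to 621 in untreated, 645 to 694 in siLuc and 561 to 691 in siStag3 libraries. Impact and Peg3 made up 68.9% to 74.4% of the sum of the paternally expressed genes.

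**Figure D1:**
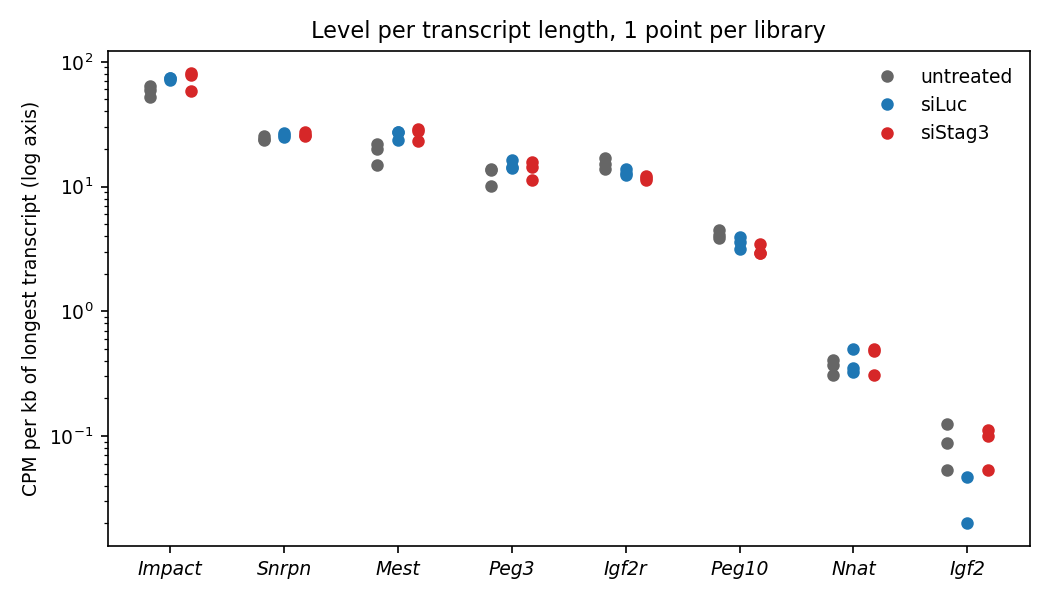
CPM per kb of the longest transcript on a log axis, 1 point for each of 9 libraries, coloured by group; 1 siLuc library with Igf2 at 0 cannot be drawn. Impact is the highest at 52.4 to 80.9 CPM per kb and Igf2 the lowest at up to 0.124, with Snrpn, Mest, Peg3 and Igf2r overlapping along the order between them.

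Mest and Impact were higher in siLuc than in untreated cells, and no imprinted gene of the 8 was lower at the threshold. They were 2 of 8 genes called, beside 4.2% of all genes tested (1.65% higher and 2.55% lower). Mest, which encodes a membrane protein of the alpha/beta hydrolase fold, stood at 53.3, 58.2 and 39.8 CPM in untreated cells and at 73.0, 73.1 and 62.7 CPM in siLuc cells (Set 1 experiments 1 and 3, then Set 3, as in all such triples below). Every siLuc library was above every untreated library. The log2 fold change was 0.48 (SE 0.0665, adjusted p = 0.00192), a fold of 1.39. Impact encodes a GCN1-binding protein that restrains the stress kinase GCN2. It stood at 221.7, 242.2 and 197 CPM in untreated cells and at 276.5, 280.1 and 267.2 CPM in siLuc cells, again with no overlap. Its log2 fold change was 0.32 (SE 0.0729, adjusted p = 0.0293), a fold of 1.25. Bulk RNA cannot tell more RNA per cell from more cells that express a gene.

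**Figure D2:**
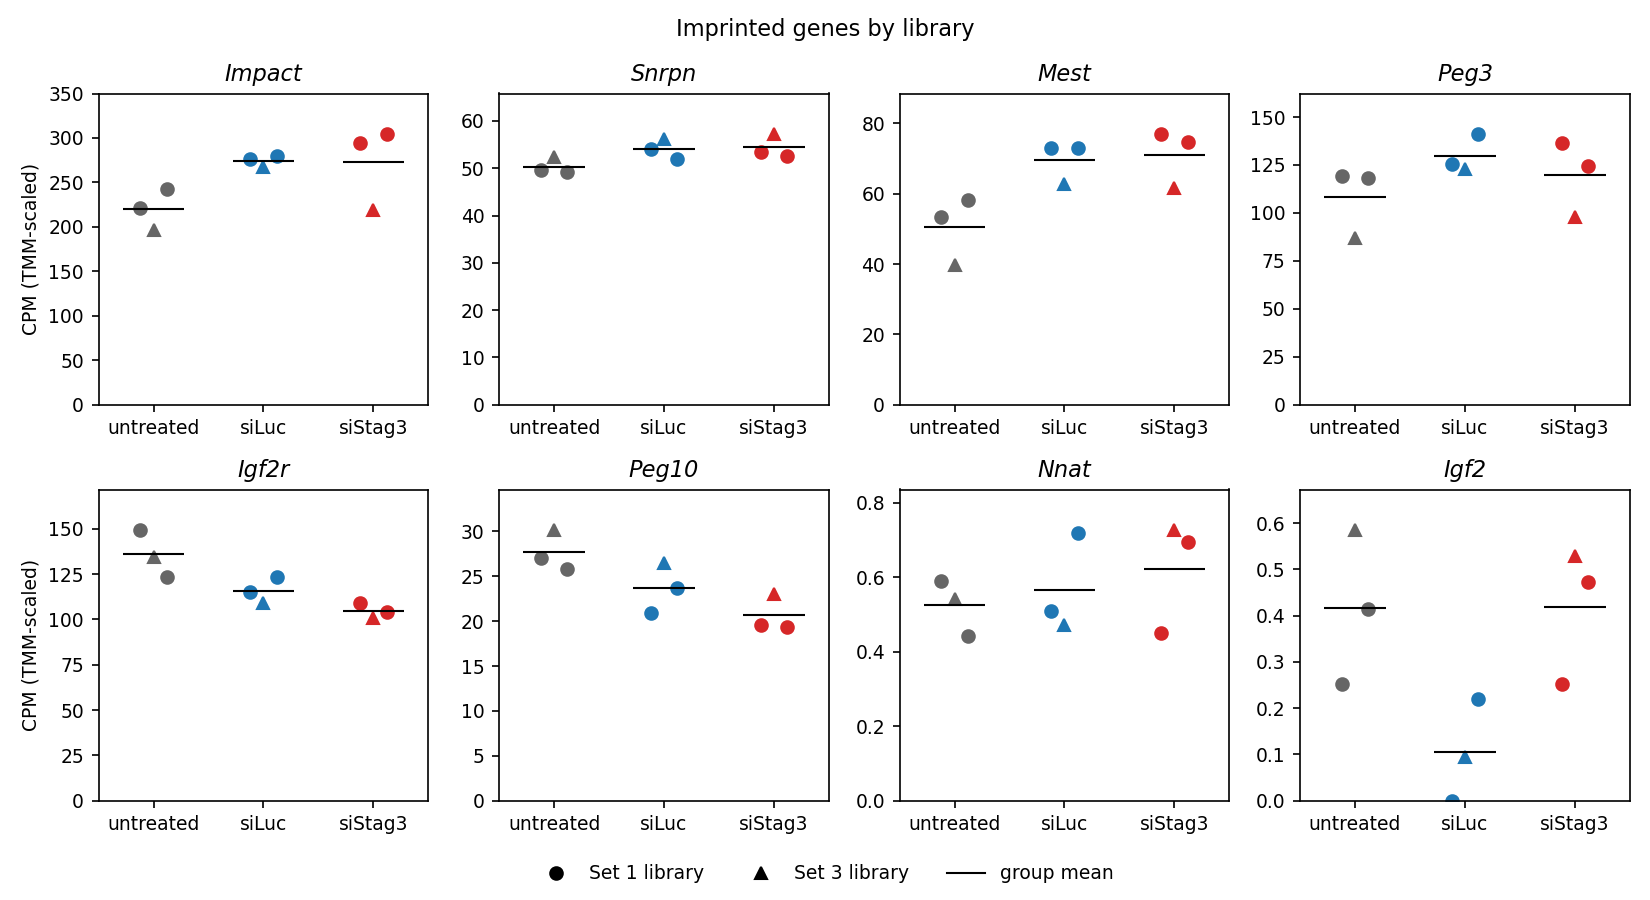
CPM of the 8 imprinted genes in each library by group, with circles for Set 1, triangles for Set 3 and a line at the mean of 3 libraries; each panel has its own axis from 0. All siLuc and siStag3 libraries lie above the untreated libraries for Mest (61.6 CPM or more against 58.2 CPM or less), and all siStag3 libraries lie below the untreated libraries for Igf2r and Peg10.

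Of the 8 genes, 3 were higher and 2 lower in siLuc than in untreated cells without overlap of the groups, beside 19.9% of all genes without overlap. Besides Mest and Impact, these were 3 genes that the test did not call. Peg3, a zinc finger protein, stood at 119.4, 118.4 and 87.05 CPM in untreated and at 125.6, 141.1 and 122.8 CPM in siLuc cells (log2 fold change 0.28, SE 0.0763, adjusted p = 0.0544). Igf2r, the receptor that removes IGF2 from the cell surface, stood at 149.3, 123.6 and 134.6 CPM in untreated and at 115, 123.2 and 109.3 CPM in siLuc cells (log2 fold change -0.23, SE 0.0694, adjusted p = 0.0668). For both, the nearest libraries of the groups lay close together. Igf2, the growth factor, is the third of these genes and was near the detection limit. Its counts were 9, 14 and 27 in untreated, 0, 8 and 3 in siLuc, and 9, 15 and 16 in siStag3 libraries, and in siLuc against untreated the fitted log2 fold change was -1.87 (SE 0.604, adjusted p = 0.0804). Of the 31-base words of Igf2's transcripts, 61.9% also occur in the overlapping gene Gm49394, which has 9 counts in that siLuc library where Igf2 has 0, 9 in the first untreated library and 0 in the other 7, so counts could be split between the 2 genes. Without the siLuc library of Set 1 experiment 3 the Igf2 values were -3.19 in siLuc against untreated (adjusted p = 0.0386) and 3.20 in siStag3 against siLuc, and over the fits that left out 1 library the adjusted p ran from 0.0386 to 0.361 and from 0.406 to 0.975. Peg10, a retrotransposon-derived gene needed for the placenta, stood at 27.07, 25.85 and 30.14 CPM in untreated and 20.91, 23.73 and 26.46 CPM in siLuc cells, with overlap (log2 fold change -0.22, SE 0.0689, adjusted p = 0.0698).

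In siLuc against untreated Snrpn and Nnat had the smallest differences of the 8. Snrpn, which encodes a spliceosome protein, stood at 49.53, 49.22 and 52.33 CPM in untreated, 54.12, 52.04 and 56.2 CPM in siLuc and 53.41, 52.65 and 57.23 CPM in siStag3 cells. Its 9 values ran from 49.2 to 57.2 CPM. Of its 31-base words 28.6% occur in other genes, most of them in Gm38393, so part of its counts may belong there. Nnat, a small membrane protein best known in neurons, had 15 to 26 counts in the 9 libraries, or 0.443 to 0.726 CPM. In siLuc against untreated the log2 fold change was 0.10 for Snrpn (SE 0.0553, adjusted p = 0.234) and 0.12 for Nnat (SE 0.304, adjusted p = 0.833).

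Against untreated cells, siStag3 cells had higher Mest and Impact and lower Peg10 and Igf2r. These were 4 of 8 genes, beside 2.53% of all genes called (1.07% higher and 1.46% lower). Mest stood at 76.96, 74.7 and 61.6 CPM in siStag3 cells, all above the untreated libraries (log2 fold change 0.50, SE 0.0665, adjusted p = 0.0012). Impact stood at 294.8, 304.4 and 219.5 CPM, of which the Set 3 value lay inside the untreated range (log2 fold change 0.30, SE 0.0729, adjusted p = 0.0452). Peg10 stood at 19.61, 19.38 and 23.04 CPM, all below the untreated libraries, and fell by 0.42 on the log2 scale (SE 0.0695, adjusted p = 0.00557). Igf2r stood at 108.8, 104 and 100.9 CPM, also below every untreated library, and fell by 0.38 (SE 0.0696, adjusted p = 0.0111). The groups were without overlap for 4 of the 8 genes, Mest, Snrpn, Peg10 and Igf2r, beside 10% of all genes. Snrpn was not called (log2 fold change 0.11, SE 0.0553, adjusted p = 0.322), nor was Peg3, at 136.7, 124.7 and 97.69 CPM in siStag3 cells (log2 fold change 0.15, SE 0.0763, adjusted p = 0.344). Nnat had a log2 fold change of 0.23 (SE 0.302, adjusted p = 0.726) and Igf2 of -0.01 (SE 0.475, adjusted p = 0.996). The comparisons of siLuc and siStag3 with untreated cells share the untreated libraries.

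None of the 8 genes was called in siStag3 against siLuc by edgeR's quasi-likelihood test, where 0.0281% of all genes were called. At an unadjusted p under 0.05 there were 2, Igf2 and Peg10, beside 7.88% of all genes, and DESeq2's Wald test called 0. Peg10 had a log2 fold change of -0.20 (SE 0.0703, adjusted p = 0.505) and Igf2r of -0.15 (SE 0.0698, adjusted p = 0.641). The siStag3 libraries were all below the siLuc libraries for Igf2r and all above for Igf2, while the other 6 genes overlapped, beside 6.59% of all genes without overlap. For Igf2 this separation and the fold change below could depend on how counts were split with Gm49394. In the siLuc library of Set 1 experiment 1, Igf2 was at 0 and Gm49394 at 0.2865 CPM. In the siStag3 library of Set 1 experiment 1, Igf2 was at 0.2529 CPM, and Gm49394 was at 0 in all siStag3 libraries. Peg3 had a log2 fold change of -0.13 (SE 0.0763, adjusted p = 0.696), Igf2 of 1.86 (SE 0.619, adjusted p = 0.460) and Nnat of 0.11 (SE 0.305, adjusted p = 0.930). Mest at 0.03 (SE 0.0661, adjusted p = 0.925), Impact at -0.02 (SE 0.0728, adjusted p = 0.938) and Snrpn at 0.01 (SE 0.0554, adjusted p = 0.974) had the smallest differences. These standard errors set how small a difference between the siRNAs could be seen, and a p above the threshold does not show that the levels were equal.

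All of these calls rest on the term for Set. Without it no gene of the 8 was called, and over all genes 0% were called in siStag3 against siLuc, 0.00702% in siLuc against untreated and 0.014% in siStag3 against untreated. For Mest the adjusted p was then 0.580 in siLuc and 0.546 in siStag3 against untreated. With the Set term, Mest passed in both comparisons whichever of the 9 libraries was left out. Impact in siLuc against untreated was lost without 5 of the 9, namely the untreated library of Set 1 experiment 1 or of Set 3, the siLuc library of Set 1 experiment 1 or of Set 3, or the siStag3 library of Set 1 experiment 1 (adjusted p 0.0537 to 0.158), and with terms for both Set and experiment (log2 fold change 0.23, adjusted p = 0.220). With both terms, comparisons with siLuc rest on the Set 1 libraries, since the Set 3 siLuc library shares its Set and experiment with no other library. In siStag3 against untreated Impact was lost without any of 7 libraries (adjusted p 0.0532 to 0.230) and passed only without the Set 3 library of siLuc or of siStag3. It also missed the threshold there with total count scaling (adjusted p = 0.0672) and with only genes of a mean of at least 50 counts (adjusted p = 0.0504). Igf2r in siStag3 against untreated lost its call without the untreated library of Set 3 (adjusted p = 0.114) or the siStag3 library of Set 1 experiment 1 (adjusted p = 0.0732), and Peg10 without the latter (adjusted p = 0.0544). Leaving out the Set 3 siStag3 library raised the count in siLuc against untreated to 5 of 8, with Peg3, Igf2r and Peg10 added. Over all 14246 genes the number called rose from 598 to 2458 in the same step.

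GC content moved with the comparisons. Across 14226 genes, the log2 fold change correlated with transcript GC content at Spearman's rho -0.48 in siLuc against untreated, -0.31 in siStag3 against untreated and 0.37 in siStag3 against siLuc, as a description across genes. Impact has the lowest GC content of the 8, 42.1%, and Nnat the highest, 58.6%. After a correction for GC content, 7.13%, 6.54% and 0.358% of all genes were called in these comparisons. The corrected log2 fold change of Impact was 0.16 in siLuc against untreated (adjusted p = 0.0243) and 0.21 in siStag3 against untreated (adjusted p = 0.00271). For Mest it was 0.43 (adjusted p = 4.9e-05) and 0.49 (adjusted p = 9.05e-06). Peg3 (0.23, adjusted p = 0.046), Igf2r (-0.19, adjusted p = 0.0359) and Peg10 (-0.27, adjusted p = 0.0102) also passed in siLuc against untreated with the correction, and Igf2r and Peg10 again passed in siStag3 against untreated, at -0.35 and -0.43. The share of counts from mitochondrial genes also differed between groups, at 3.48% to 5.33% in untreated, 5.98% to 6.73% in siLuc and 4.10% to 6.78% in siStag3 libraries, and its part in these results was not tested.

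**Figure D3:**
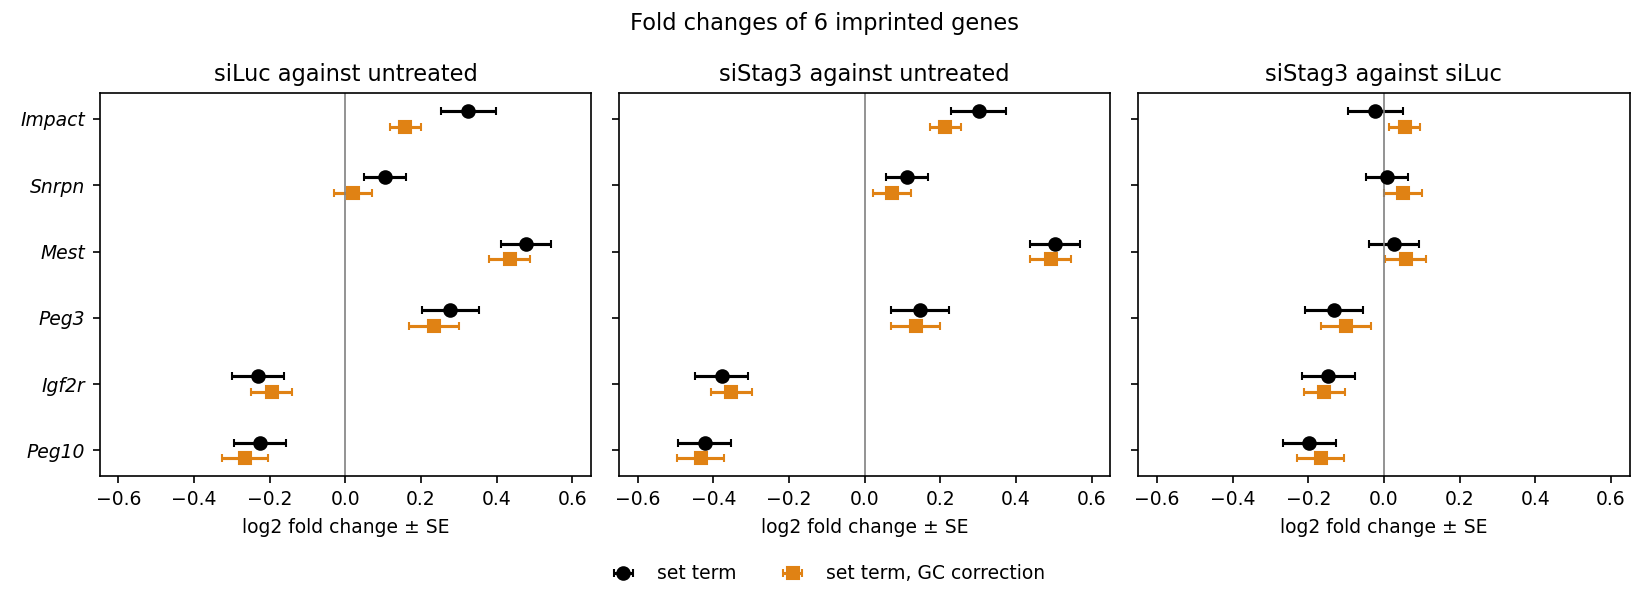
Log2 fold change with its standard error for 6 imprinted genes in each comparison, from the fit with a Set term (black circles) and the same fit with GC correction (orange squares). Mest lies at 0.43 to 0.50 against untreated cells in both fits, Impact moves from 0.32 to 0.16 in siLuc against untreated, and in siStag3 against siLuc no point is beyond -0.20.

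Within the sets, 7 of the 8 genes had the same direction in Set 1 and Set 3 in siLuc against untreated, 7 in siStag3 against untreated and 4 in siStag3 against siLuc. The share of all genes with the same direction was not counted, so these counts have no background beside them. They include Igf2 and Nnat, which had low counts. Mest differed between siLuc and untreated by 0.39 in mean log2 CPM in Set 1 and by 0.65 in Set 3, and between siStag3 and untreated by 0.45 and 0.63. Peg10 differed between siStag3 and untreated by -0.44 and -0.39, and Igf2r by -0.35 and -0.42. Impact differed between siStag3 and siLuc by 0.11 in Set 1 and by -0.28 in Set 3. A test of the difference between the sets called 0 of the 8 genes in each comparison, beside 1.12% of all genes in siStag3 against siLuc, 0.014% in siLuc against untreated and 0.00702% in siStag3 against untreated. The smallest adjusted p was 0.0814, for Impact in siStag3 against siLuc. When the fit held only the 6 libraries of siStag3 and siLuc, the difference between sets was called for Impact (-0.39, adjusted p = 0.00079) and Peg3 (-0.30, adjusted p = 0.0379). The share of all genes called was not counted for that fit, so the calls of Impact and Peg3 have no background beside them. The Set 3 arms hold 1 library each, and in siStag3 against siLuc these come from different experiments.

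**Figure D4:**
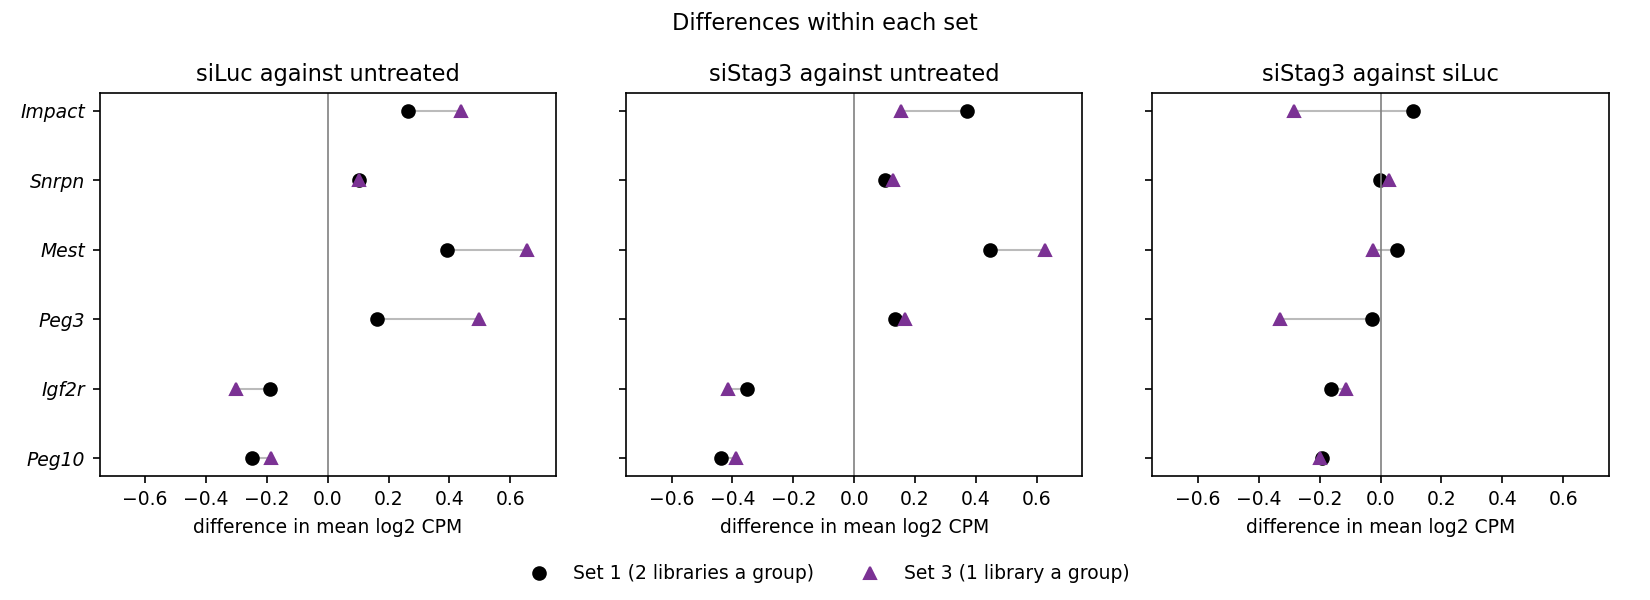
Difference in mean log2 CPM within Set 1 (circles, 2 libraries a group) and within Set 3 (triangles, 1 library a group) for 6 imprinted genes. Mest, Peg10 and Igf2r lie on the same side of 0 in both sets against untreated cells, and Impact lies on opposite sides in siStag3 against siLuc, at 0.11 and -0.28.

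The sets themselves differed in 4 of the 8 genes, beside 42.7% of all genes called (21.4% higher and 21.2% lower in Set 3). Peg3 (log2 fold change -0.33, adjusted p = 0.00176), Mest (-0.33, adjusted p = 0.000584) and Impact (-0.24, adjusted p = 0.00763) were lower in Set 3, and Peg10 was higher (0.22, adjusted p = 0.00881). Impact was at -0.04 after GC correction (adjusted p = 0.402), and none of the 4 was called with terms for both Set and experiment. Snrpn (0.09, adjusted p = 0.135), Igf2r (-0.07, adjusted p = 0.349), Igf2 (0.56, adjusted p = 0.320) and Nnat (0.03, adjusted p = 0.942) were not called. The Mest level in the untreated library of Set 3, 39.8 CPM, was the lowest of the 9, and the siRNA libraries of Set 3 exceeded both untreated libraries of Set 1.

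Among neighbours of the 8 genes is Usp29, whose 300-base window printed above overlaps that of Peg3. Usp29, a ubiquitin peptidase gene that is also paternally expressed, stood at 13.91, 13.5 and 11.22 CPM in untreated, 12.89, 12.11 and 8.443 CPM in siLuc and 10.37, 11.25 and 7.525 CPM in siStag3 cells. It fell by 0.42 in siStag3 against untreated (SE 0.0908, adjusted p = 0.0252). The ratio of Peg3 to Usp29 counts was 7.76 to 8.77 in untreated, 9.74 to 14.6 in siLuc and 11.1 to 13.2 in siStag3 libraries. Both siRNA groups were thus above every untreated library. The mean log2 ratio was 0.50 higher in siLuc and 0.57 higher in siStag3 than in untreated cells, each at p = 0.1 by a two-sided exact permutation test, the smallest p that 3 against 3 libraries allow (0.15 after Benjamini-Hochberg adjustment over 3 comparisons, the third of which, siStag3 against siLuc, gave 0.07 at p = 0.7). This ratio was chosen after its values were seen, and these tests could not reach the threshold, so a difference between Peg3 and Usp29 is not shown.

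Sgce, which shares the Peg10 domain and encodes a sarcoglycan, was at 0.477 to 1.19 CPM, on 15 to 55 counts, and had a log2 fold change of -0.62 in siLuc against untreated (SE 0.241, adjusted p = 0.122). Copg2, a coat protein gene whose exons overlap Mest on the other strand, stood at 71.67, 74.25 and 64.4 CPM in untreated and 79.58, 76.8 and 65.27 CPM in siLuc cells (log2 fold change 0.07, SE 0.0586, adjusted p = 0.439). Without a stated strand setting, reads from that overlap cannot be assigned to either gene. Copg2 against untreated was 0.02 in siStag3 cells (SE 0.0587, adjusted p = 0.879), beside 0.50 for Mest. Blcap, the gene around Nnat, was at 26.8 to 28.8 CPM on the group means, far above Nnat. In the Snrpn domain Ube3a, a ubiquitin ligase, had group means of 106.5, 144.1 and 131.1 CPM in untreated, siLuc and siStag3 cells, with overlap of the groups, while the group means of Ndn, Mkrn3 and Peg12 were at or below 3.27 CPM. Zim1, in the Peg3 domain, was at 0.585 to 1.10 CPM.

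A wider list of 57 other imprinted genes was 45 in the table and 37 tested, of which 21 are known as maternally and 16 as paternally expressed. In siLuc against untreated, 1 was higher and 1 lower, beside 4.2% of all genes called. Sfmbt2, a Polycomb-related gene, stood at 54.14, 50.08 and 59.94 CPM in untreated and 59.34, 62.7 and 80.17 CPM in siLuc cells, with overlap (log2 fold change 0.29, SE 0.0678, adjusted p = 0.0322). Tssc4, a splicing factor gene in the Kcnq1 domain, stood at 24.63, 22.45 and 25.9 CPM in untreated and 17.19, 18.38 and 19.88 CPM in siLuc cells, without overlap, and fell by 0.40 (SE 0.0905, adjusted p = 0.0312). These counts ran from 0 to 6 when 1 library was left out, and only leaving out the siStag3 library of Set 1 experiment 3 kept 2. In siStag3 against untreated Usp29 alone was called (0 genes without the untreated library of Set 1 experiment 1 or of Set 3, or the siStag3 library of Set 1 experiment 1, and 4 without the siStag3 library of Set 3), and in siStag3 against siLuc none by edgeR (4 of the 37 at an unadjusted p under 0.05, beside the same 7.88%). Without the Set term none of the 37 was called in these comparisons. After GC correction Sfmbt2 was called in siStag3 against siLuc, at -0.26 (adjusted p = 0.0387). The median log2 fold change of the 37 was 0.02, 0.00 and -0.05 in siLuc against untreated, siStag3 against untreated and siStag3 against siLuc, beside -0.002, -0.006 and -0.005 over all genes tested. Between Set 3 and Set 1, 9 of the 37 were higher and 14 lower, beside 21.4% and 21.2% of all genes. By known parental copy, these were 8 higher and 4 lower of 21 maternally expressed genes, and 1 higher and 10 lower of 16 paternally expressed genes. After GC correction they were 6 higher and 5 lower of the 21, and 2 higher and 10 lower of the 16. The median GC content was 52.2% for the maternally and 46.1% for the paternally expressed genes, and Set 3 against Set 1 correlated with GC content at rho 0.47 across genes. The part of GC content in these counts was not tested further.

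Of 16 genes known to maintain or reset DNA methylation at imprints, among them Zfp57, Trim28, Uhrf1, Dnmt1 and Dnmt3l, none was called in siLuc against untreated or in siStag3 against siLuc (edgeR), beside 4.2% and 0.0281% of all genes. In siStag3 against untreated 1 was called, Dppa3, beside 2.53%. After GC correction 1 was higher in siLuc against untreated, Dnmt3b (0.16, adjusted p = 0.0243), and 1 lower, Dppa3 (-0.42, adjusted p = 0.0429), beside 7.13% of all genes called. Dppa3, whose maternal protein shields imprints in the zygote, stood at 38.12, 43.52 and 50.4 CPM in untreated, 37.02, 34.66 and 32.32 CPM in siLuc and 21.35, 26.18 and 24.95 CPM in siStag3 cells. The 3 groups did not overlap. It fell by 0.86 in siStag3 against untreated (SE 0.102, adjusted p = 0.000781, and 0.0604 with no Set term). In siStag3 against siLuc the log2 fold change was -0.52 (SE 0.103, adjusted p = 0.168). Trophoblast markers, given because Peg10 and Peg3 are prominent in placenta, summed to 73.4 to 77.01 CPM in untreated, 74.6 to 77.6 CPM in siLuc and 64.8 to 69.8 CPM in siStag3 libraries, over 9 of 10 listed genes. Tfap2c made up most of that, at 55.8 to 67.1 CPM, while Cdx2, Elf5 and Gata3 were between 0.315 and 2.02 CPM and no marker of the list was at 0 in any group. The part of these markers in the Peg10 values was not tested.

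Over the 9 libraries, 6 of the genes varied together or against each other after the mean of each set was subtracted from log2 CPM. Mest varied with Snrpn (Pearson's r 0.93) and Impact (0.88), Igf2r varied with Peg10 (0.93), and Mest varied against Igf2r (-0.89) and Peg10 (-0.84). Peg3 followed Impact (0.79) and Usp29 in the opposite direction (-0.58). Nnat had no r beyond 0.33 with another of the 8. Igf2 ran from -0.49 with Snrpn and -0.48 with Peg3, over 0.10 with Igf2r and 0.13 with Peg10, to 0.33 with Nnat. These are descriptions over 9 libraries that share groups, depth and base composition effects. By the same measure over 14245 genes, the closest to Impact were Tfrc, the transferrin receptor gene (0.998), and Ppp6r3 (0.994). Closest to Mest were Enox1 and Hsd17b11 (both 0.99), to Peg10 Armcx2 (0.99) and Syde2 (0.98), to Peg3 Nova1 (0.99) and Rabgap1 (0.98), and to Snrpn Ddx58 (0.99) and Otx2 (0.98). Mex3a (0.98) was among the closest to Igf2r. The nearest to Igf2 were Cabp1 (0.97) and Dhrs1 (0.96), and to Nnat Bbs9 (0.98) and Casp6 (0.92), at counts where sampling noise is large. All of these genes were picked as the highest of 14245 correlations over 9 libraries, and shared regulation was not tested.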

How the data were processed

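Messenger RNA was measured by bulk RNA sequencing in 9 libraries, 3 per group. Per the labels' protocols, libraries were made with a KAPA kit for mRNA. The authors deposited whole-number raw counts per gene and library. FastQC, Salmon, DESeq2 and build GRCm39 are named in the submitters' processing notes, without versions or order; how transcript estimates became whole counts, the annotation and the strand setting are not given in the sources used here. The table's smallest row sum is 9 counts. Columns were matched to groups by name and carry no replicate numbers, so p-values measure the spread between these columns.

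Counts were tested in R 4.3.3 with edgeR 4.0.16 (TMM scaling, filterByExpr by group, robust quasi-likelihood fit of group plus Set, with 5 residual degrees of freedom), with the Benjamini-Hochberg adjustment and a threshold of 0.05. The Set is read from the column names. The biological coefficient of variation was 7.62% with the Set term and 14.6% without it. Log2 CPM used a prior count of 2. GC correction used 20 bins of transcript GC content. The fit of siStag3 against siLuc was also run on simulated counts, in which the difference between sets was the same in every group. These counts held no experiment effect and no siRNA difference that varied between sets, so the simulation cannot speak to either. DESeq2 1.42.0 (Wald test), other scalings and filters, other terms and fits that left out each library were alternatives. The 8 genes were described whatever their values, as were their neighbours. Other imprinted genes and imprint maintenance genes were named where they passed the threshold, at most 5 in each direction, and the 2 genes of most similar profile were named for each, of which 1 is not reported here. The genes and lists were chosen with earlier results of these data known.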

Additional observations from a re-analysis of the deposited data

Results flagged for a closer look

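Zdbf2, a paternally expressed imprinted gene of the wider list, differed between the sets in siStag3 against siLuc by edgeR's interaction test on all 9 libraries. In that fit no other of the 8 or 37 imprinted genes tested was called in any comparison. Impact and Peg3 were called with only the 6 libraries compared or without either untreated library of Set 1. For those fits the share of all genes called was not counted. Zdbf2 stood at 94.1 and 106.5 CPM in siLuc and 109.3 and 99.32 CPM in siStag3 in Set 1, and at 73.62 CPM in siLuc and 46.67 CPM in siStag3 in Set 3. The difference between siStag3 and siLuc in Set 3 minus that in Set 1 was -0.71 on the log2 scale (SE 0.132, adjusted p = 0.0412), beside 1.12% of all genes called in that test. Set 3 held 1 library of each group, from different experiments, so set, experiment and siRNA cannot be told apart there.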

How the results depend on the processing

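No paired analysis was possible because the table's columns carry no replicate numbers, if pairs are those of the labels' replicate numbers. Libraries can be matched by the Set and experiment in the column names, and the fit with terms for both compares libraries within them. In siStag3 against untreated, both groups have a library in each Set and experiment used. There that fit called 4 of the 8 genes, 2 higher and 2 lower, beside 352 of all genes. The number of the 8 genes called in siLuc against untreated, 2 in the fit reported, was 0 with no Set term, 4 with total count scaling only, 4 with DESeq2's Wald test, 4 with only the 6 libraries compared, 5 with GC correction and 1 with terms for Set and experiment, and 1 to 5 when 1 library was left out. Over all genes, 598 were called in the fit reported and 1, 761, 1328, 1801, 1016 and 86 in those settings, in that order. With 1 library left out, 111 to 2458 of all genes were called. In siStag3 against untreated, 4 became 0 with no Set term (2 of all genes) and 1 to 4 when 1 library was left out (78 to 1591 of all genes). In Set 3 against Set 1, 4 became 0 with terms for Set and experiment (699 of all genes). There the Set term rests on the Set 3 siLuc library alone, so that fit cannot decide the difference between sets. Of the 37 other imprinted genes, the 0 called in siStag3 against siLuc became 1 with GC correction. The 2 called in siLuc against untreated became 0 with no Set term, 1 with total count scaling only, 4 with only the 6 libraries compared, 4 with GC correction, 1 in Set 1 alone (298 of all genes), 0 with terms for Set and experiment, and 0 to 6 when 1 library was left out. The 1 called in siStag3 against untreated became 0 with no Set term, 3 with GC correction (932 of all genes), 2 in Set 1 alone (949 of all genes), and 0 to 4 when 1 library was left out. The difference between sets was called for 0 of the 8 genes, for 2 with only the 6 libraries compared, for 1 with DESeq2's Wald test, and for 0 to 3 when 1 Set 1 library was left out. For these alternatives the share of all genes called was not counted. The difference between sets could not be fitted without a Set 3 library of the groups compared, and was not run without a Set term, in Set 1 alone or with an experiment term. Impact in siStag3 against siLuc, -0.02, turned to 0.055 with GC correction, 0.11 in Set 1 alone and 0.071 with terms for Set and experiment, and ran from -0.068 to 0.078 when 1 library was left out (0.072 without the Set 3 siLuc and 0.078 without the Set 3 siStag3 library). Nnat in Set 3 against Set 1, 0.03, turned to -0.20 with GC correction and -0.25 with terms for Set and experiment (-0.14 to 0.21 when 1 library was left out), and in siStag3 against siLuc, 0.11, to -0.13 in Set 1 alone and -0.062 with terms for Set and experiment (-0.072 to 0.35). Nnat in siLuc against untreated ran from -0.11 to 0.31 when 1 library was left out. Igf2 in siStag3 against untreated, -0.0068, turned to 0.016 with the Wald test, 0.0052 with only the 6 libraries compared, 0.057 with GC correction, 0.11 in Set 1 alone and 0.0030 with terms for Set and experiment (-0.23 to 0.20), and Snrpn in siStag3 against siLuc, 0.0081, to -0.0018 in Set 1 alone (-0.0030 to 0.029). No value that turned was called. The cause of these shifts was not tested. Of the fold changes of the 8 genes under the other alternatives, 246 kept their direction and side of the threshold, 14 lost the call, 13 gained it and 13 turned. Over all genes, the 598 called in siLuc against untreated ran from 1 with no Set term to 2458 without the Set 3 siStag3 library, the 361 in siStag3 against untreated from 2 to 1591 in the same settings, the 4 in siStag3 against siLuc from 0 to 51 with GC correction, and the 6076 between sets fell to 699 with an experiment term. With total count scaling the median of all genes moved by -0.05 in both comparisons with untreated cells. Depth limits Igf2 and Nnat, at 27 counts or fewer per library.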
